A study of Mus musculus with 8 samples.

Results

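Autophagy is the process by which a cell encloses part of its own cytoplasm in a double membrane, the autophagosome, and delivers it to the lysosome for breakdown. The kinase mTORC1, active on the lysosome surface when amino acids are plentiful, holds back the ULK1 kinase that starts the process and keeps the transcription factor TFEB, which drives lysosomal and autophagy genes, out of the nucleus. Liver uses this pathway to recover amino acids during fasting and to break down lipid droplets and mitochondria.

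The genes described here were 55 genes of autophagy initiation, conjugation, cargo receptors, TFEB and mTORC1, and the lysosome, picked by name. Of these, 53 had an array row annotated to that gene alone, out of 22180 genes in all, and the brightest row was used where a gene had several. Optn and Bnip3l had no such row and were not analysed here. Liver RNA came from 3-month-old mice on normal chow, killed at 5 pm (ZT10) 2 weeks after an intravenous dose of adeno-associated virus (AAV), a vector that mainly reaches hepatocytes in liver. The 4 NCOR_KO livers received AAV-Cre, whose Cre recombinase removes the floxed segment of the gene encoding the corepressor NCOR, and the 4 WT livers received AAV-GFP. Sample labels give the control genotype as wild-type, whereas in the design text NCOR floxed mice received either virus, so whether control livers carried the floxed allele is not known, and an effect of Cre itself cannot be told apart from loss of NCOR. The promoter driving Cre was not given in the sources used here, and Ncor1 was not analysed here, which leaves the group labels without a check on the deleted gene. Replicates are described as biological but not tied to named animals, and p-values measure only the spread between these samples.

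The arrays were close to one another, with median intensities of 41.0 to 44.1 and arrays of the same group correlated across genes at 0.994 to 0.997, those of different groups at 0.992 to 0.996. The first principal component (33.1% of the variance) separated the groups, at -15.2 to -9.1 in WT and 8.9 to 18.7 in NCOR_KO arrays. The second principal component (20.4% of the variance) set WT replicate 2 and NCOR_KO replicate 1 apart from the other arrays. In this bulk tissue, fewer cells of a type and less RNA per cell cannot be told apart. The summed intensity of 12 hepatocyte markers was 84688 to 86932 in WT and 83378 to 85343 in NCOR_KO arrays, so hepatocyte transcripts were bright on every array.

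None of the 53 measured genes passed the threshold in knockout liver: 0 rose and 0 fell at a limma adjusted p under 0.05, where 1.65% of all genes did (0.816% higher, 0.834% lower). Of the 53, 49 lay at or above the level of the median gene. In a fit on genes at or above that level alone, 0 of these 49 passed, where 4.97% of 11090 genes did. With shares this low a list of this size would hold few calls, and the count of 0 does not set these genes apart. At an unadjusted limma p under 0.05 there were 14 (6 higher and 8 lower), or 26.4% of the 53, where 15.9% of all genes were called. That count was 6 without WT replicate 2, 7 without NCOR_KO replicate 2 or 3, and 15 with the mean of a gene's rows. The groups did not overlap for 8 of the 53 (15.1%), against 10.4% of all genes. Of these 8, Atg16l2, Ctsb and Ctsl were higher in knockout (4.9% of all genes) and Fnip2, Nbr1, Atg14, Atg9a and Atg4b were lower (5.49% of all genes). The shares at an unadjusted limma p under 0.05 and without overlap were not computed for genes at or above the median level alone.

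The changes were small. The median log2 change (knockout minus control) of the 53 was -0.04, where that of all genes was 0.01. Genes at or above the median level had a median of -0.02. The median size regardless of sign was 0.07 in the 53 against 0.08 in all genes. The changes ran from -0.44 for Fnip2 to 0.59 for Atg16l2, and 35 of 53 were below 0, or 66.0% against 48.0% of all genes. That count was 31 after quantile normalization and 40 with each array centred on its median, so the split between the directions moves with the scaling. Centring moved the median of all genes to -0.03. The share below 0 was not computed for all genes under those scalings or for genes at or above the median level alone. The 95% limma interval of the change lay wholly within 1.5-fold in either direction for 51 of the 53, all but Fnip2 and Atg16l2, and for 95.5% of all genes. The members' SD within a group, pooled over both groups, had a median of 0.08 on the log2 scale, against 0.11 over all genes, and its highest value was 0.27. All genes include many dim ones, and the SD of genes at or above the median level alone was not computed.

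**Figure D1:**
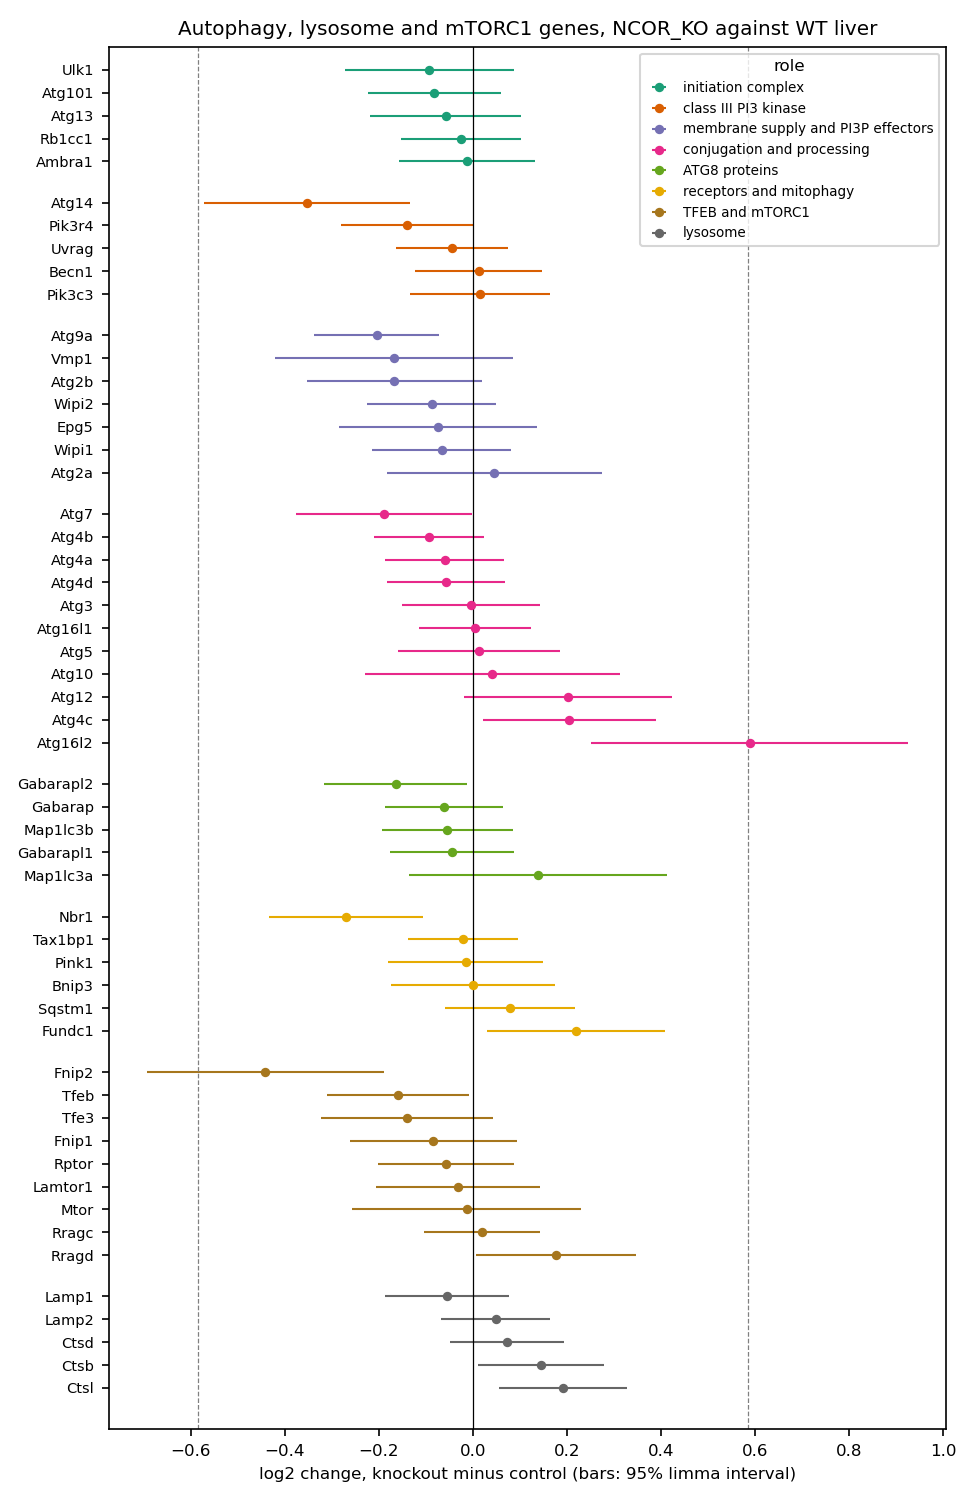
Log2 change (knockout minus control, 4 against 4 arrays) of the 53 measured genes by role, with bars for the 95% limma interval and dashed lines at 1.5-fold in either direction. Only the intervals of Fnip2 (-0.69 to -0.19) and Atg16l2 (0.25 to 0.92) cross a dashed line, and 35 of the 53 points lie below 0.

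**Figure D2:**
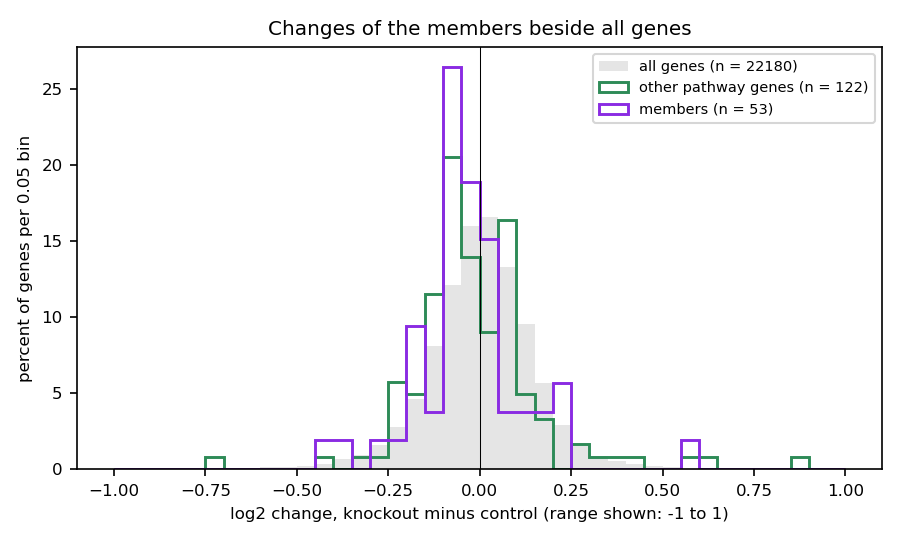
Percent of genes in each bin of log2 change for all 22180 genes, the 122 measured genes of the other pathway lists and the 53 members, over the range -1 to 1. The 3 distributions centre near 0, with medians of 0.01, -0.04 and -0.04.

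The initiation complex, in which the kinase ULK1 works with its partners, had 5 measured genes and 0 past the threshold. Ulk1 was at log2 intensities of 10.60, 10.71, 10.52 and 10.76 in WT replicates 1 to 4 and 10.59, 10.50, 10.71 and 10.42 in NCOR_KO replicates 1 to 4. The groups overlapped across most of their range, and the log2 change was -0.09 ± 0.08 (SE; adjusted p = 0.616). Atg101 (-0.08) and Atg13 (-0.06), which hold the complex together, the scaffold Rb1cc1 (-0.03) and the regulator Ambra1 (-0.01) had smaller differences. All 5 estimates were below 0, and 4 of 5 were after quantile normalization.

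The class III PI3 kinase, which makes the lipid PI3P on the forming membrane, had 5 measured genes with 0 past the threshold. Atg14, the subunit that directs the kinase to autophagosome formation, read 8.93, 8.60, 8.65 and 8.80 in WT and 8.25, 8.25, 8.57 and 8.49 in NCOR_KO liver. Every knockout array lay below every control array, although WT replicate 2 and NCOR_KO replicate 3 were close. The log2 change of Atg14 was -0.35 ± 0.10 (SE; adjusted p = 0.112). The regulatory subunit gene Pik3r4 was at -0.14 (adjusted p = 0.313), and Uvrag, a partner in a second form of the complex, at -0.04. The core genes Becn1 and Pik3c3 were each at 0.01, with 95% intervals of -0.12 to 0.15 and -0.13 to 0.16.

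Among 7 genes that supply or shape the membrane, 0 passed. Atg9a encodes the membrane protein whose vesicles seed the autophagosome. It read 8.47, 8.34, 8.47 and 8.46 in WT and 8.20, 8.20, 8.31 and 8.21 in NCOR_KO liver. The groups did not overlap, and the log2 change was -0.20 ± 0.06 (SE; adjusted p = 0.130). In this gene WT replicate 2 stood below the other controls and NCOR_KO replicate 3 above the other knockouts. Vmp1, an endoplasmic reticulum protein of early autophagosome formation, and the lipid transfer gene Atg2b were each at -0.17 (adjusted p = 0.513 and 0.361). Vmp1 lay below the level of the median gene. The PI3P-binding genes Wipi2 and Wipi1 were at -0.09 and -0.07, the tethering factor Epg5 at -0.07 and Atg2a at 0.05.

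The 11 genes of conjugation attach ATG8 proteins to the membrane or cut them, and 0 passed. Atg16l2, a relative of the ATG16L1 scaffold, had the largest difference of all members. It read 7.10, 6.68, 7.16 and 7.09 in WT and 7.92, 7.48, 7.76 and 7.22 in NCOR_KO liver. The groups did not overlap, with NCOR_KO replicate 4 only just above the controls and WT replicate 2 well below the other controls. The log2 change was 0.59 ± 0.15 (SE), a 1.5-fold difference, with an adjusted p of 0.0895. It was past the threshold without NCOR_KO replicate 4 (0.71, adjusted p = 0.0436) and was 0.37 (adjusted p = 0.222) with WT replicate 2 and NCOR_KO replicate 1 both left out. At an adjusted p under 0.1, a level that 3.64% of all genes reached, Atg16l2 and Fnip2 would be the only members called.

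Other conjugation genes differed less. Atg4c, a protease that trims ATG8 proteins, was at 0.20 (adjusted p = 0.263) and Atg12, a ubiquitin-like protein gene, at 0.20 (adjusted p = 0.355). Atg7, the E1-like enzyme that starts both conjugation reactions, was at -0.19 (adjusted p = 0.310). The protease gene Atg4b was at -0.09 (adjusted p = 0.427) with groups that did not overlap. The remaining 6, Atg4a, Atg4d, Atg3, Atg16l1, Atg5 and Atg10, lay between -0.06 and 0.04.

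The 5 ATG8 proteins coat the autophagosome and bind cargo receptors, and 0 of their genes passed. Gabarapl2 read 9.42, 9.36, 9.20 and 9.21 in WT and 9.07, 9.15, 9.11 and 9.21 in NCOR_KO liver. WT replicates 1 and 2 were the high arrays, and NCOR_KO replicate 4 reached the lower controls. Its log2 change was -0.16 ± 0.07 (SE; adjusted p = 0.277). Map1lc3b, whose product LC3B is the usual marker of autophagosomes, was at -0.05 with a 95% interval of -0.19 to 0.09. Gabarap (-0.06), Gabarapl1 (-0.04) and Map1lc3a (0.14) did not pass either.

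Of 6 measured receptor and mitophagy genes 0 passed. Nbr1, a receptor for ubiquitin-tagged cargo and peroxisomes, read 10.69, 10.82, 10.61 and 10.84 in WT and 10.36, 10.51, 10.57 and 10.44 in NCOR_KO liver. The groups did not overlap, but WT replicate 3 and NCOR_KO replicate 3 were near each other. The log2 change was -0.27 ± 0.07 (SE; adjusted p = 0.105). Sqstm1, which encodes the related receptor p62, was at 0.08 (adjusted p = 0.580), with a 95% interval of -0.06 to 0.22. The mitochondrial receptor Fundc1, which lay below the level of the median gene, was at 0.22 (adjusted p = 0.245). Tax1bp1, another cargo receptor, was at -0.02 and Pink1, the kinase that marks damaged mitochondria, at -0.02. Bnip3, a mitochondrial receptor induced by low oxygen, was at -1.40e-04.

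In the TFEB and mTORC1 group 0 of 9 genes passed. Fnip2 encodes a partner of folliculin, and the pair activates the small GTPases RagC and RagD, through which mTORC1 reaches TFEB. Fnip2 read 8.80, 8.64, 8.998 and 9.10 in WT and 8.45, 8.20, 8.59 and 8.54 in NCOR_KO liver. All knockout arrays lay below all control arrays, with WT replicate 2 closest to them. The log2 change was -0.44 ± 0.11 (SE), 1.36-fold lower, with an adjusted p of 0.0893. It was past the threshold with array weights (adjusted p = 0.0484), and its adjusted p was 0.0417 to 0.209 over all alternatives.

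The other genes of this group differed less than Fnip2. Tfeb was at -0.16 (adjusted p = 0.285) and its relative Tfe3 at -0.14 (adjusted p = 0.441). Rragd, one of the Rag GTPase genes, was at 0.18 (adjusted p = 0.294), while Rragc was at 0.02. Tfeb and Rragd lay below the level of the median gene. Fnip1 (-0.08), Rptor (-0.06), which encodes the mTORC1 subunit raptor, the anchor gene Lamtor1 (-0.03) and Mtor itself (-0.01) did not pass. The 95% interval of Mtor was -0.26 to 0.23.

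The 5 lysosomal members, 3 proteases and both LAMP membrane proteins, included 0 past the threshold. Ctsl, which encodes the protease cathepsin L, read 12.12, 11.94, 11.97 and 11.99 in WT and 12.13, 12.23, 12.24 and 12.19 in NCOR_KO liver. The groups did not overlap, although WT replicate 1 nearly met NCOR_KO replicate 1, and the log2 change was 0.19 ± 0.06 (SE; adjusted p = 0.159). Ctsb, for cathepsin B, read 12.26, 12.10, 12.26 and 12.14 in WT and 12.31, 12.37, 12.30 and 12.36 in NCOR_KO liver. Its groups lay apart by a narrow gap, with a log2 change of 0.15 ± 0.06 (SE; adjusted p = 0.276). Ctsd, for cathepsin D, was at 0.07, Lamp2 at 0.05 and Lamp1 at -0.06.

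**Figure D3:**
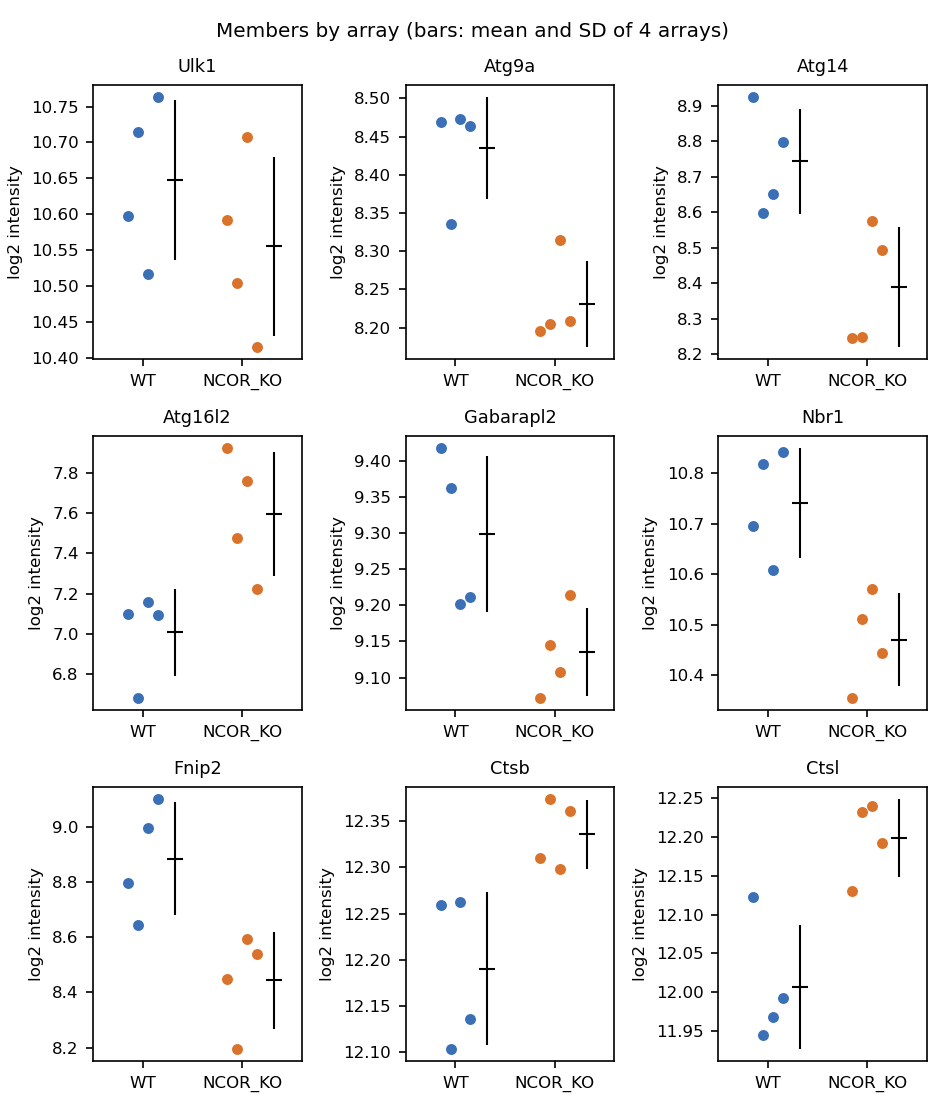
Log2 intensity of 9 members in each WT and NCOR_KO array, with bars for the mean and SD of 4 arrays; each panel has its own axis, which does not start at 0. The groups do not overlap in Atg9a, Atg14, Atg16l2, Nbr1, Fnip2, Ctsb and Ctsl, and they overlap in Ulk1 and Gabarapl2.

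Other genes of the same pathway, listed by name in 5 groups, showed 4 calls among 122 measured (3.28%, against 1.65% of all genes): Lipa and Arsa rose, Ulk2 and Flcn fell. In the fit on genes at or above the median level, 5 of 115 passed (these 4 and Tecpr2), or 4.35%, near the 4.97% of all genes in that fit. Their median log2 change was -0.04, as in the members. Promoter sequence (RefSeq, GRCm38.p6, gene strand, the 250 bases before the start) is shown for these 4, which carry the calls, and for Ctsd and Atg3, the only members whose 300-base window (250 before to 50 after the start) held TCACGTGA, the core of the motif TFEB binds. Capitals mark CACGTG, TCACGTGA and AGGTCA, a sequence that many nuclear receptors bind, searched on both strands; TCACGTGA contains CACGTG, and the motifs can overlap.
Lipa (chr19:34527475-34527724, minus strand): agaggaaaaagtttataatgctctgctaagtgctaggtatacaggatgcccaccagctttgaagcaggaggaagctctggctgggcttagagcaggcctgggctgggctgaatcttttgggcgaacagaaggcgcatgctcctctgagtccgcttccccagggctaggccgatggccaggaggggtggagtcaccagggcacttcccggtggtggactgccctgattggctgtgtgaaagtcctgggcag
Arsa (chr15:89477425-89477674, minus strand): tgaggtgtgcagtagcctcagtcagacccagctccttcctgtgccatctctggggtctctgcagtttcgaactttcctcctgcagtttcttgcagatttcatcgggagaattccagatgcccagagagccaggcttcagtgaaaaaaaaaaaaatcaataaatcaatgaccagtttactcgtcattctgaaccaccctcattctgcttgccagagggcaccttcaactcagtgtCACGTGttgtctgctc
Ulk2 (chr11:61855093-61855342, minus strand): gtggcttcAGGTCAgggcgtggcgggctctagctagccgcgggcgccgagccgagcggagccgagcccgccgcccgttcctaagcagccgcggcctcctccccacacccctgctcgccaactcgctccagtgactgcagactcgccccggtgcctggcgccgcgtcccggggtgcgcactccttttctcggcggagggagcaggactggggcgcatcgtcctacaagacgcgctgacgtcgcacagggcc
Flcn (chr11:59810040-59810289, minus strand): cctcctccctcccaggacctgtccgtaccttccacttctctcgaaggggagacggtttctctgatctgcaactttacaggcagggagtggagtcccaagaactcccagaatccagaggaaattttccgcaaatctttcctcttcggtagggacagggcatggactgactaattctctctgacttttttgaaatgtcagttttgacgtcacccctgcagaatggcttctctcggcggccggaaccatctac
Ctsd (chr7:142387828-142388077, minus strand): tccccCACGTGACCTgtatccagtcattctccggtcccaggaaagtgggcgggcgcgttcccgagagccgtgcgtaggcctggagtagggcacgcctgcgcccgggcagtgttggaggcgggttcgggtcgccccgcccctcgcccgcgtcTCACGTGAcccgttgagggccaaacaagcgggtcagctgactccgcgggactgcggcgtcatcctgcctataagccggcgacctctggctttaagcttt
Atg3 (chr16:45158579-45158828, plus strand): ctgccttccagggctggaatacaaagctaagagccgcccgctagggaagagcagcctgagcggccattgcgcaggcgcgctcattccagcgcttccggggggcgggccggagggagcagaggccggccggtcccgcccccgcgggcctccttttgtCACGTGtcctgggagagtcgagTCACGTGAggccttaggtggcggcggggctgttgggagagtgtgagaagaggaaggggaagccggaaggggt

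Of the 53 members 45 were matched to a promoter. CACGTG was found in 11 of the 45 (24.4%), where 8.09% of 27025 genes and 7.15% of 32851 promoter windows held it. The 11 were Atg14, Atg3, Atg5, Atg7, Bnip3, Ctsd, Ctsl, Fnip1, Lamp1, Lamtor1 and Rragc, and their log2 changes ran from -0.35 to 0.19 with a median of -0.00439. The 4 copies before Lamp1 were the most of any member. TCACGTGA was held by 2 of 45 (4.44%; 1.12% of all genes and 0.974% of windows), and these genes, Ctsd and Atg3, were at 0.07 and -0.00439. AGGTCA was held by 8 of 45 (17.8%; 18.1% of all genes and 16.3% of windows). A match describes letters and not a binding site. Of the 4 called genes, Arsa held CACGTG 16 bases before the start and AGGTCA just after it, Ulk2 held AGGTCA, and Lipa and Flcn held none of these strings in their windows.

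Lipa encodes lysosomal acid lipase, which releases fatty acids and cholesterol from lipids delivered to the lysosome. It read 11.54, 11.49, 11.63 and 11.42 in WT and 11.96, 11.91, 11.98 and 11.91 in NCOR_KO liver. The knockout arrays were tightly grouped and all above the controls. Lipa rose 1.34-fold (log2 change 0.42 ± 0.06 SE, adjusted p = 0.00936), and it passed in all 16 alternative fits. Arsa encodes arylsulfatase A, the lysosomal enzyme that breaks down sulfatide. It read 8.16, 8.40, 8.01 and 8.09 in WT and 9.05, 8.79, 8.59 and 8.65 in NCOR_KO liver. No array of one group entered the range of the other, and NCOR_KO replicate 1 was the highest. Arsa rose 1.52-fold (0.61 ± 0.11 SE, adjusted p = 0.0306). The call was lost, at adjusted p of 0.0549 to 0.0962, without WT replicate 1, 3 or 4 or without NCOR_KO replicate 1 or 2.

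These were 2 of 34 measured lysosomal enzymes and membrane proteins (5.88%, against 1.65% of all genes), with 0 that fell and 32 that did not pass. In the fit on genes at or above the median level, 4.97% of all genes passed. The list had a median of -0.03, and 20 of 34 were below 0 (18 after quantile normalization and 22 with centring), or 58.8% against 48.0% of all genes. Of the 34, 32 lay at or above the level of the median gene, and genes at that level had a median of -0.02. The share below 0 was not computed for that level alone. Ctsc, a protease gene, was at 0.57 (adjusted p = 0.0948) with overlapping groups. The hydrolase genes Ids, Neu1 and Galns were at -0.23, -0.23 and -0.25 (adjusted p = 0.158, 0.183 and 0.195), with groups that did not overlap. In all, the groups did not overlap for 7 of the 34 (20.6%, 3 higher and 4 lower), against 10.4% of all genes. That share was not computed for genes at or above the median level alone. The 17 measured V-ATPase subunits, which acidify the lysosome, had 0 past the threshold and a median of 0.04. The V-ATPase gene with the largest difference was Atp6v0d2, at 0.86 with a 95% interval of -0.11 to 1.82 (adjusted p = 0.370).

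Markers of other liver cell types were set beside the lysosomal genes. Of 11 Kupffer cell and macrophage markers 0 passed, and their summed intensity was 2990 to 5743 in WT and 3563 to 6229 in NCOR_KO arrays. All 11 were lowest of their group in WT replicate 2 and in NCOR_KO replicate 1, the arrays that the second principal component set apart, and without these the sums were 4738 to 5743 and 5377 to 6229. Ctsl was also lowest of its group in both arrays, at 11.94 and 12.13, while Arsa was highest of its group in both, at 8.40 and 9.05. Ctsb was lowest in WT replicate 2 (12.10) but not in NCOR_KO replicate 1 (12.31), and Lipa was lowest in neither. With both arrays left out, the log2 change of Ctsl was 0.19 and that of Ctsb 0.12. Lipa (0.40, adjusted p = 0.0483) and Arsa (0.59, adjusted p = 0.0139) passed the limma threshold in that fit. Of 10 endothelial markers 0 passed, but all 10 were above 0, with a median of 0.22 and sums of 7378 to 9042 and 8787 to 10251. Of 7 lymphocyte markers 2 passed, both higher (Cd79a and Cd3e, sums of 291 to 310 and 338 to 394), where 0.816% of all genes did. Most of this list was dim, with 1 of the 7 at or above the level of the median gene. Of 5 cholangiocyte markers, 3 of them at or above that level, 1 passed and was higher (Epcam, sums of 317 to 332 and 368 to 434). In the stellate (9) and neutrophil (6) lists 0 passed, with sums of 6259 to 6803 and 6186 to 7246, and of 145 to 166 and 148 to 160. No marker was listed at 0. The part of the other cell types in the values of Lipa, Arsa, Ctsb and Ctsl was not tested.

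Ulk2 encodes a kinase closely related to ULK1. It read 9.95, 10.02, 9.86 and 9.83 in WT and 9.01, 9.25, 9.33 and 9.25 in NCOR_KO liver, with a clear gap between the groups. Ulk2 fell 1.63-fold (log2 change -0.70 ± 0.08 SE, adjusted p = 0.00273) and passed in all 16 alternative fits. It was the only call among 24 other genes of autophagosome formation and fusion (4.17%, against 1.65% of all genes). In the fit on genes at or above the median level, which also called Tecpr2, 4.97% of all genes passed. Tecpr2, a gene of autophagosome maturation, was next at 0.33 (adjusted p = 0.0732), and Rubcn, which encodes the autophagy inhibitor Rubicon, was at -0.23 (adjusted p = 0.137).

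Flcn encodes folliculin, the partner of the FNIP proteins. It read 8.22, 7.90, 8.05 and 8.14 in WT and 7.75, 7.66, 7.71 and 7.53 in NCOR_KO liver. The groups did not overlap, with WT replicate 2 the control nearest to the knockouts. Flcn fell 1.33-fold (-0.41 ± 0.08 SE, adjusted p = 0.0359). That call was lost when any single array other than WT replicate 2 was left out (adjusted p 0.0636 without NCOR_KO replicate 1 to 0.106 without NCOR_KO replicate 2; 0.0724 and 0.0762 without NCOR_KO replicates 3 and 4; 0.0885, 0.0779 and 0.0965 without WT replicates 1, 3 and 4). It was the only call among 32 other mTORC1 and amino acid sensing genes (3.12%, against 1.65% of all genes). In the fit on genes at or above the median level, 4.97% of all genes passed. Of these 32, 24 were below 0 (23 after quantile normalization, 28 with centring), or 75% against 48.0% of all genes. Of the 32, 29 lay at or above the level of the median gene. Genes at that level had a median change of -0.02, and all genes had one of -0.03 with centring. Shares below 0 were not computed for either. The mTORC1 inhibitor gene Tsc1 was at -0.33 (adjusted p = 0.120), and the lysosomal anchor genes Lamtor2 and Lamtor4 were at -0.23 and -0.19. The 15 other receptor and mitophagy genes had 0 past the threshold, with Usp30, a deubiquitinase that opposes mitophagy, at -0.23 (adjusted p = 0.205).

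**Figure D4:**
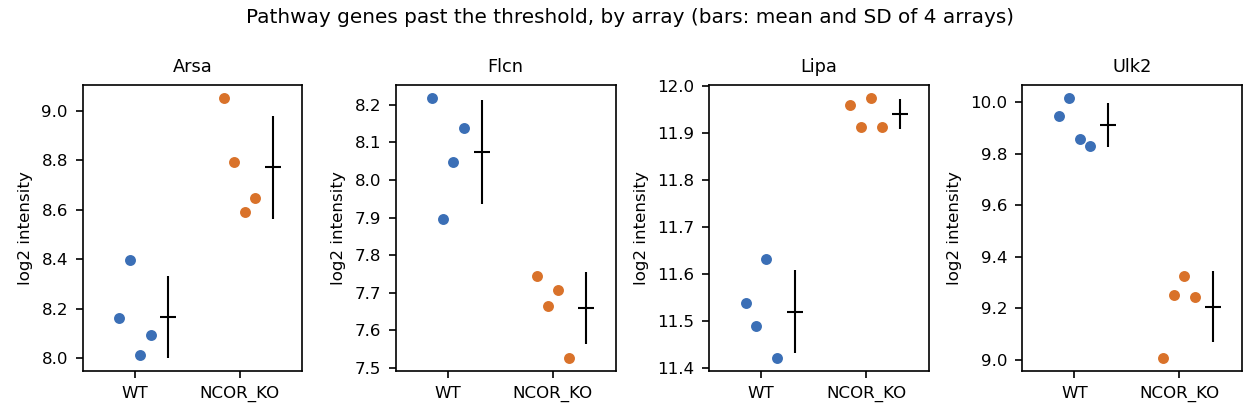
Log2 intensity of Arsa, Flcn, Lipa and Ulk2 in each WT and NCOR_KO array, with bars for the mean and SD of 4 arrays; axes differ and do not start at 0. All knockout points lie above the controls in Arsa and Lipa and below them in Flcn and Ulk2.

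Ulk2 and Flcn lie on chromosome 11, which also carries Ncor1. By gene order in RefSeq, 12 genes separate Ulk2 from Ncor1 and 93 separate Flcn from it. Among the 50 measured genes on each side of Ncor1, 6 of 100 passed (4 lower and 2 higher, Ulk2 among them), or 6.0%, against 1.74% of 1556 measured genes elsewhere on that chromosome. The window was chosen after the values were seen. Of the members, 8 lie on this chromosome, none of them within that window.

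Related genes were then compared within each array, as the log2 value of one minus that of the other, for 17 pairs. The pairs were listed by kinship after the values had been seen. The difference between Ulk2 and Ulk1 shifted by -0.61 ± 0.11 (SE), that between Atg16l2 and Atg16l1 by 0.58 ± 0.19 and that between Fnip2 and Fnip1 by -0.36 ± 0.17. For Tecpr2 against Tecpr1 the shift was 0.48 ± 0.15 and for Atg9b against Atg9a 0.28 ± 0.05. Atg9b was dimmer than the median gene, at 4.36 in WT and 4.43 in NCOR_KO liver. Its own log2 change was 0.07, against -0.20 for Atg9a. In a two-sided exact permutation test over 70 assignments of 4 and 4 arrays, 8 of the 17 pairs reached p = 0.0286, the smallest that design allows. A pair reaches it when its differences do not overlap between the groups, and the share of other gene pairs that do so was not computed. Several of these pairs hold a gene whose own groups did not overlap (Ulk2, Atg16l2, Atg9a, Tecpr2 and Laptm4b), so the count is not independent of those genes. Adjusted over the 17 pairs the lowest value was 0.0607. At least 10 pairs would have had to reach the smallest p for any to pass 0.05, so the adjusted values say little about a single pair. Fnip2 against Fnip1 was at an exact p of 0.114 (adjusted p = 0.177). Tfe3 against Tfeb shifted by 0.02 ± 0.12 and Wipi2 against Wipi1 by -0.02 ± 0.06.

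**Figure D5:**
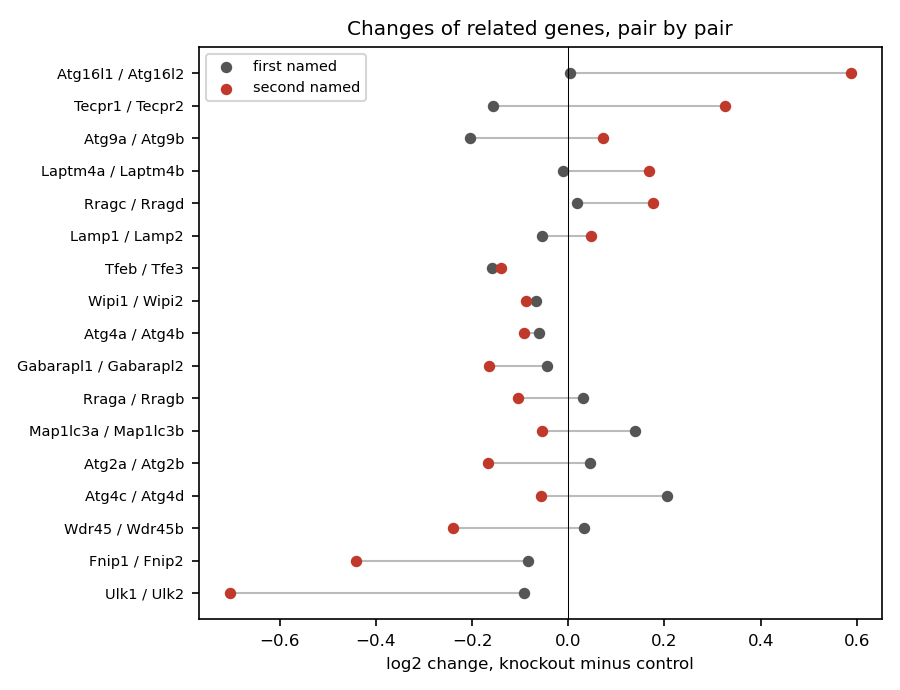
Log2 change (knockout minus control, without error bars) of both genes of 17 pairs of relatives, joined by a line and ordered by their difference. The widest gaps are those of Ulk1 and Ulk2 (-0.09 and -0.70) and of Atg16l1 and Atg16l2 (0.00392 and 0.59).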

How the data were processed

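Total RNA of 8 livers was hybridised to Affymetrix Mouse Gene 2.0 arrays, per the labels. The authors deposited 1 linear intensity per probe set and array; RMA and Partek are listed in the submitters' processing notes, with their roles, versions, filters and build not given in the sources used here. Log2 was taken, with no further normalization. Of 41345 rows, 23521 were annotated to a single gene, 1814 to several and 16010 to none. Of the single-gene rows 23328 matched RefSeq (GRCm38.p6) by gene identifier. The brightest row per gene over 8 arrays was kept (1082 genes had several rows; Gabarap alone among members), which gave 22180 genes, dim ones included; 49 of the 53 members lay at or above the median gene.

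Groups and replicate numbers came from the sample labels. All genes were fitted with limma 3.58.1 on R 4.3.3 (lmFit, eBayes; intercept and group), and adjusted p-values are Benjamini-Hochberg over 22180 genes at a threshold of 0.05. Members and gene lists were chosen with earlier results of these data known. Array values are printed for members with groups that do not overlap and an unadjusted p under 0.05, and for the member with the largest change in each role group; for pathway lists, genes past the threshold, or the largest change where none passed, are named, and further genes with large changes were named after their values were seen. The alternatives tried were array weights, quantile normalization, median centring, trend and robust variance, a filter on dim genes, the mean of a gene's rows, the replicate block, thresholds of 0.01 and 0.1, and leaving out each array. A fit without both WT replicate 2 and NCOR_KO replicate 1, and the alternatives for pathway genes, were added after seeing the data. The steps were tested on simulated data. The number of arrays limits the precision of every value.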

Additional observations from a re-analysis of the deposited data

Results flagged for a closer look

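In 114 groups of 4 arrays (the 53 members and 4 called pathway genes), 4 held an array far from the others of its group by Dixon's 95% criterion, where chance gives about 1 in 20. Atg9a in WT replicate 2 was at 8.34, with the other controls at 8.46 to 8.47, and Atg9a in NCOR_KO replicate 3 was at 8.31, with the other knockouts at 8.20 to 8.21. Atg16l2 in WT replicate 2 was at 6.68, with the other controls at 7.09 to 7.16. Sqstm1 in WT replicate 1 was at 11.84, with the other controls each at 11.73 or 11.74.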

How the results depend on the processing

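The counts of members past the threshold, 0 higher and 0 lower, became 1 and 1 at an adjusted p under 0.1 (Atg16l2 and Fnip2) and 1 lower (Fnip2) with array weights. Leaving out single arrays gave 0 to 1 higher and 0 to 0 lower. With a replicate block 1 member was lower (Fnip2) and 0 were higher, and in the remaining alternatives both counts were 0. Deviations from the group mean were little correlated between same-numbered arrays (-0.09, 0.01, 0.02 and -0.06), and 0 of 8 correlated best with their own number. The labels do not say whether same-numbered arrays were handled together, and these correlations cannot settle it. With the replicate block 155 of all genes were called in place of 366, and the adjusted p was 0.0417 for Fnip2 and 0.0756 for Flcn. The 9 members printed by array kept their direction in all 16 alternatives; Ulk1 ran from -0.14 to -0.05, without NCOR_KO replicates 3 and 4. Leaving out arrays shrinks the groups. The direction of up to 6 of 53 members turned in one alternative or another. Vmp1, Fundc1, Tfeb and Rragd lay below the median gene; the array background was not analysed here, so whether signal limits them is not known.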
